A study of Mus musculus with 26 samples.

Results

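The cytotoxic granule genes are 9 genes, Gzma, Gzmb, Gzmk, Prf1, Nkg7, Ctsw, Serpinb9, Serpinb6b and Srgn, taken by gene symbol from the 21761 genes of each of the series' 2 count tables. All 9 were found in both tables, so the account below follows 9 of 21761 genes over 26 libraries of mouse CD4 T cells. All mice were C57BL/6, and the cells were taken from their lymph nodes and spleen. In the first table, Tet2/3-deficient Tregs (n = 4) were CD4+ eGFP+ cells sorted from mice aged 3 weeks that carried Tet2fl/fl, Tet3fl/fl, the Foxp3-eGFP reporter and CD4-Cre. The CD4 promoter drives this Cre, so deletion reaches T cells in general and not Tregs alone. Control Tregs (n = 4) were the same sort at the same age from mice with both floxed alleles and the reporter but no Cre. The other 12 libraries of that table, from Foxp3-eGFP reporter mice aged 5 to 6 weeks, were cultures of naive CD4 T cells (n = 2 each) and the naive cells themselves (n = 2). The cultures were iTregs made with TGFβ plus retinoic acid (RA) plus vitamin C, with TGFβ plus RA, with TGFβ plus vitamin C or with TGFβ alone, and Th0 cells activated through CD3 and CD28 without TGFβ. The naive cells were sorted as eGFP- CD25- CD62L-high CD44-low. In the second table, from mice aged 12 to 14 weeks, iTregs made with TGFβ were restimulated through CD3 and CD28 and their Foxp3-negative cells were sorted on day 6 after restimulation (n = 3), beside iTregs made with TGFβ and sorted for Foxp3 on day 6 of culture (n = 3). The labels do not say whether replicates came from separate animals, so p-values measure the spread between these libraries, which may be technical.

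As background, cytotoxic lymphocytes kill by releasing granules: perforin (Prf1) opens the target membrane, granzymes (Gzma, Gzmb, Gzmk) are the serine proteases that enter through it, and serglycin (Srgn) is the proteoglycan that holds them in the granule. Nkg7 is a granule membrane protein that promotes release, Ctsw is a cysteine protease found in cytotoxic lymphocytes, and Serpinb9 is an inhibitor of granzyme B that protects the cell that carries it. Serpinb6b is another intracellular serpin of the same clade. Regulatory T cells are CD4 T cells that can carry part of this set, and granzyme B and perforin are described as one of their routes of suppression. TET dioxygenases oxidise 5-methylcytosine and vitamin C increases their activity, which is the link between the knockout and the cultures.

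Library totals were 13397602 to 17672302 counts in the 8 ex vivo Treg libraries, 9647669 to 11640223 in the 12 naive and cultured libraries, and 11293704 to 17219805 in the second table. No 2 replicates agreed within sampling noise (chi-square per degree of freedom 2.23 to 22.4). Whole-gene counts of the deleted genes also cover exons outside the floxed part, so they check the deletion only weakly: Tet2 was at 12.0 to 16.5 CPM in Tet2/3-deficient Tregs and 9.96 to 15.7 CPM in control Tregs, which overlapped. Tet3 was at 96.3 to 115 CPM in Tet2/3-deficient Tregs and 126 to 172 CPM in control Tregs, which did not. Defining markers of the sorted cells were present, with Foxp3 at 542 to 611 CPM in Tet2/3-deficient Tregs and 606 to 737 CPM in control Tregs. Of the 5 T cell markers 3 were called lower in Tet2/3-deficient Tregs and of the 5 Treg markers 2, with Cd4 at 605 ± 37.2 CPM in deficient Tregs and 883 ± 69.1 CPM in control Tregs (SD, n = 4 each, edgeR adjusted p = 0.000118), and Foxp3 among them (adjusted p = 0.0113). Control libraries S1 and S3 stood apart in B cell markers, and results without them are given below. Levels of 1 gene across libraries are in CPM, the counts of the gene scaled to the total of its library. Levels of different genes are compared only in FPKM, which divides by gene length. All libraries are bulk, so fewer cells of a type and less RNA per cell cannot be told apart.

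The promoters of the members that differ most are shown to place the results beside their sequence, since the transcription factor genes Eomes and Runx3 are followed below. Sequences are the windows before the RefSeq start in GRCm38.p6, a later build than the mm9 named by the submitters, written 5' to 3' on the gene's strand and ended before any annotated exon. Capitals mark AGGTGT (a T-box core, the kind of site Eomes binds), TGTGGT (a RUNX core) and TGANTCA (an AP-1 site), each on either strand. None of these motifs overlapped another in the lines shown.
Gzma, chr13:113100982-113101231, minus strand: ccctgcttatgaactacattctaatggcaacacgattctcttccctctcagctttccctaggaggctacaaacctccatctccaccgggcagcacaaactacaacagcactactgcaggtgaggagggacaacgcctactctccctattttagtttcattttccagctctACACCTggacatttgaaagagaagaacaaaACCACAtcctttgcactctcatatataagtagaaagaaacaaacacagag
Prf1, chr10:61297586-61297832, plus strand: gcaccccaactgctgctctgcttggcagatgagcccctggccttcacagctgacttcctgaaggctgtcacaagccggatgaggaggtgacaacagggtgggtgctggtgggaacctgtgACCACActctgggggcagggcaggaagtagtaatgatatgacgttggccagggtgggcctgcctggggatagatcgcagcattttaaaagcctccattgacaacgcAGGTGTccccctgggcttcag
Nkg7, chr7:43436888-43437072, plus strand: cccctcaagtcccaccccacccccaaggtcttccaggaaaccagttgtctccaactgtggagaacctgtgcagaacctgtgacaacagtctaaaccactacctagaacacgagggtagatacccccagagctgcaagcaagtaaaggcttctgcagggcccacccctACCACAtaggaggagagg
Gzmb, chr14:56262335-56262584, minus strand: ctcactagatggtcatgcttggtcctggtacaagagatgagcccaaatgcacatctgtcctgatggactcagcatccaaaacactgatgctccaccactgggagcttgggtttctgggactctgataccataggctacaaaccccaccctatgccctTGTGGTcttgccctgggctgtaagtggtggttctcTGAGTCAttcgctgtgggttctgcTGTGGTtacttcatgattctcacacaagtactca
The first base of a match is given as a distance upstream of the RefSeq start. Gzma had a T-box core 80 bases and a RUNX core 50 bases upstream, and Prf1 had them at 24 and 130 bases. Nkg7 had a RUNX core at 83 bases and a T-box core at 14 bases, the second inside an annotated exon and so not printed. Gzmb had no T-box core in the window, but RUNX cores at 93 and 34 bases and an AP-1 site at 58 bases. Of the other members with an entry, Gzmk had 2 T-box cores, and Serpinb9, Serpinb6b and the first Srgn start had none of the motifs. Across 32851 promoter windows of 250 bases, 11.8% held a T-box core, 14% a RUNX core and 6.75% an AP-1 site, so such matches are common. A match is a description of the letters and not evidence of binding. On the chromosomes, Gzma and Gzmk are neighbours on chromosome 13, as are Serpinb6b and Serpinb9, and Gzmb lies beside Gzmc on chromosome 14. Granzymes and clade B serpins have close copies, and the counting method is not given in the sources used here, so some reads could be split between copies.

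Per gene length, serglycin was the most abundant member in 7 of the 10 groups, and granzyme B in the other 3. Srgn made up 60.7% of the summed FPKM of the 9 genes in Tet2/3-deficient Tregs, 78.6% in control Tregs and 75.1% in naive cells. Gzmb led in the cultures with TGFβ plus vitamin C (53.3% of the sum) and in both groups of the second table (59.6% in restimulated Foxp3-negative cells and 56.4% in day 6 iTregs). The summed FPKM was 883 in Tet2/3-deficient Tregs and 748 in control Tregs, and the composition differed: Nkg7 stood at 166 ± 10.3 FPKM in the deficient cells and 45.3 ± 5.38 FPKM in controls (SD, n = 4 each). Gzmk was listed at 0 counts in nearly all libraries, with 2, 0, 3 and 1 counts in control Tregs, 0, 4 and 0 in restimulated cells and none elsewhere, and no difference in it was detectable at this depth.

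**Figure D1:**
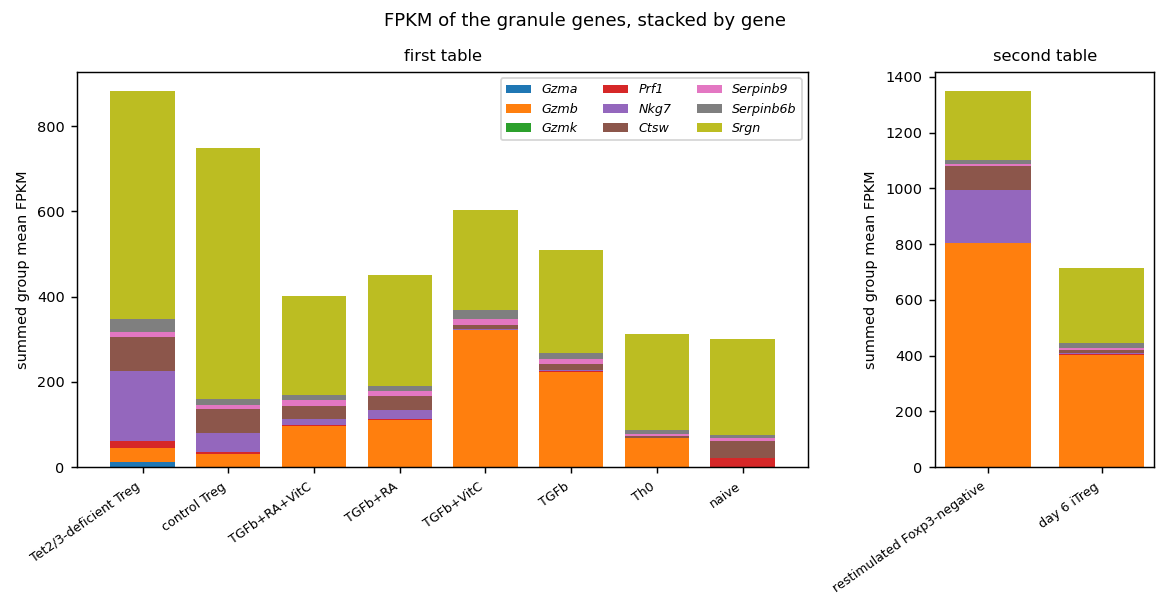
Group mean FPKM of the 9 genes stacked on each other (y axis, linear) for each group of the first table (left) and the second table (right, with its own axis). Srgn takes 60.7% in Tet2/3-deficient Tregs and 78.6% in control Tregs, while Gzmb takes 59.6% in restimulated Foxp3-negative cells and 56.4% in day 6 iTregs.

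The first comparison asks how loss of Tet2 and Tet3 changed the granule genes of Tregs taken directly from mice. Perforin, granzyme A, Nkg7, Serpinb6b and cathepsin W were higher in Tet2/3-deficient Tregs, by 1.42-fold to 12.9-fold, while granzyme B, its inhibitor Serpinb9 and serglycin did not pass the test. Of the 8 members tested, 5 rose and 0 fell; among all 11679 genes tested, 32.5% were called in either direction and 16.7% were called higher and 15.8% lower. The median log2 fold change was 0.75 over the members tested and 0.000718 over all genes. Gzma passed the filter on low counts through the deficient libraries, where it was high, so these summaries are descriptions. Calls used edgeR's quasi-likelihood test with Benjamini-Hochberg adjustment over all genes at 0.05, and every adjusted p below is from it unless another tool is named.

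Gzma, the granzyme with trypsin-like activity, was at 5.75, 21.2, 15 and 10.3 CPM in Tet2/3-deficient Tregs, against 0.860, 0.566, 1.82 and 0.689 CPM in control Tregs. Every deficient library lay above every control, and the deficient libraries spread widely. The log2 fold change was 3.69 ± 0.51 (SE), or 12.9-fold, with adjusted p = 0.00114. Gzmb, which cleaves caspases in target cells, was at 43.7, 71.5, 36.4 and 25.9 CPM in deficient Tregs, against 43.5, 49.0, 35.4 and 38.5 CPM in control Tregs. The groups overlapped, with the highest and the lowest library both in the deficient group, and the log2 fold change was 0.06 ± 0.30 (adjusted p = 0.903). Granzyme A thus passed the test and granzyme B did not, and the difference between the genes was not tested.

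Prf1 was at 30.9, 44.9, 33.3 and 35.2 CPM in Tet2/3-deficient Tregs, against 11.2, 11.6, 13 and 11 CPM in control Tregs. The groups did not overlap, and the log2 fold change was 1.59 ± 0.13 (adjusted p = 5.74e-06). Nkg7 was at 123, 136, 142 and 138 CPM in deficient Tregs, against 42.2, 33.3, 38.5 and 33.2 CPM in control Tregs. All deficient libraries were far above all controls and close to each other, with a log2 fold change of 1.84 ± 0.09, or 3.57-fold (adjusted p = 1.27e-07). Ctsw was at 115, 82.2, 97.9 and 98.1 CPM in deficient Tregs, against 77.9, 64.5, 66.4 and 60.6 CPM in control Tregs. The groups did not overlap but came close, and the rise was 1.42-fold (log2 0.51 ± 0.11, adjusted p = 0.0039).

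The 2 serpins differed from each other in their values. Serpinb6b was at 51.1, 61.3, 62.6 and 53.7 CPM in Tet2/3-deficient Tregs, against 19.6, 30.1, 29.8 and 33.2 CPM in control Tregs, a log2 fold change of 0.98 ± 0.14 (adjusted p = 0.000553) with no overlap. Serpinb9 was at 29.7, 38.4, 34.4 and 28.5 CPM in deficient Tregs, against 24.3, 36.8, 28.8 and 36.0 CPM in control Tregs. These libraries were interleaved, with a log2 fold change of 0.02 ± 0.14 (adjusted p = 0.922). Srgn was at 484, 528, 518 and 481 CPM in deficient Tregs, against 537, 573, 580 and 515 CPM in control Tregs. Most deficient libraries lay below most controls, with some overlap, and the log2 fold change of -0.17 ± 0.06 missed the threshold (adjusted p = 0.0501). Over 14 alternative settings its adjusted p ran between 0.0214 and 0.13, with a call under RLE size factors, DESeq2 and a fit of all 20 libraries, and without control library S1 or S4, so the call on Srgn depends on the setting.

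**Figure D2:**
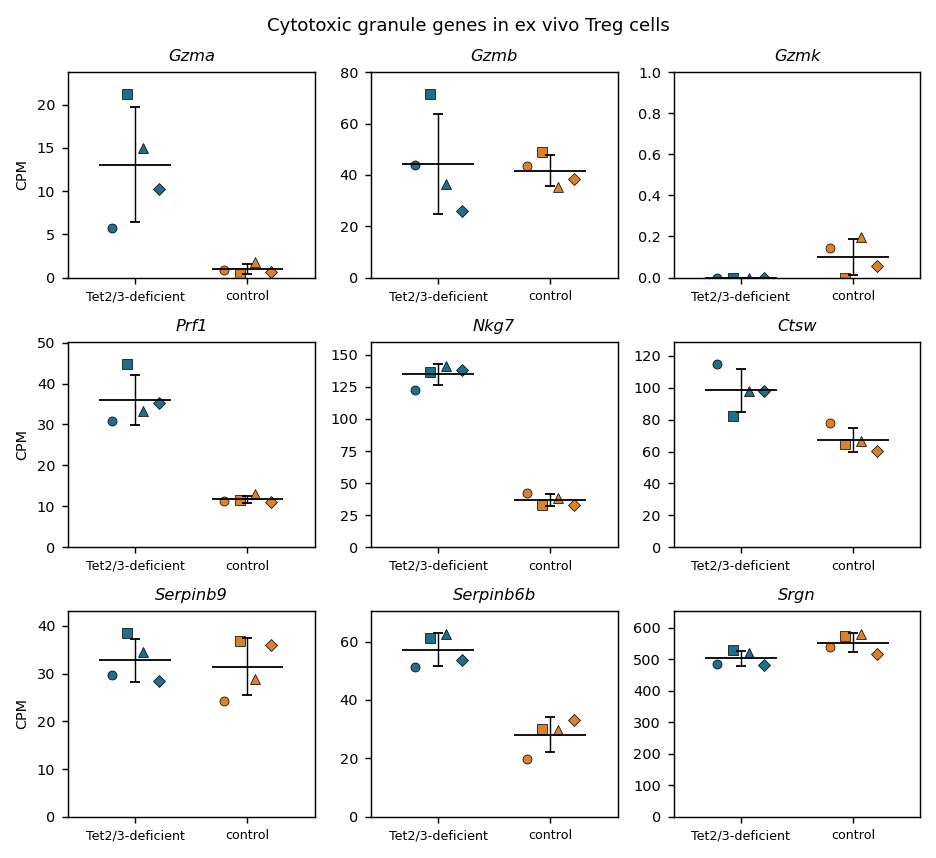
CPM (linear axis from 0, one panel a gene) in each Tet2/3-deficient and control Treg library (points, n = 4 each), with the group mean (horizontal line) and SD (error bar). Gzma, Prf1, Nkg7, Ctsw and Serpinb6b do not overlap between the groups, while Gzmb, Serpinb9 and Srgn do.

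Around the granule genes, the other lists moved in mixed directions, where 32.5% of all genes were called, 16.7% higher and 15.8% lower. Of 3 other granzymes tested (7 listed), 2 rose, Gzmf (log2 2.04 ± 0.37), which lies under the mean of 1 CPM set for naming genes and was named after its values were seen, and Gzmc (8.61 ± 1.90 CPM in Tet2/3-deficient Tregs and 4.60 ± 0.845 CPM in control Tregs, SD, n = 4 each, adjusted p = 0.00561). Among 17 tested genes of granule processing and exocytosis, 2 rose, 4 fell and 11 did not pass. The syntaxin Stx11, which acts in granule fusion, fell (log2 -0.51 ± 0.09), as did Igf2r, a receptor that sorts granzymes to granules (log2 -0.43 ± 0.06), and Vamp8 (log2 -0.30 ± 0.07), while the protease inhibitor Cst7 rose (log2 0.28 ± 0.06). Of 2 other clade B serpins tested, Serpinb6a rose (log2 0.50 ± 0.09). Of 8 death ligands and receptors, none rose, 4 fell and 4 did not pass. Tnf, Tnfrsf10b and Fas were among those that fell, with log2 fold changes of -0.59 ± 0.18, -0.40 ± 0.11 and -0.36 ± 0.10.

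Of 15 transcription factors of the cytotoxic program, 3 rose and 7 fell, where 32.5% of all genes were called. Eomes, a T-box factor of cytotoxic lymphocytes, was at 29.8 ± 5.70 CPM in Tet2/3-deficient Tregs and 4.06 ± 0.862 CPM in control Tregs (SD, n = 4 each; log2 2.83 ± 0.17, adjusted p = 9.27e-07), and Runx3 was at 88.5 ± 7.18 CPM in Tet2/3-deficient Tregs and 47.6 ± 2.68 CPM in control Tregs. Hopx fell (log2 -1.99 ± 0.09), as did Prdm1, which encodes Blimp-1 (log2 -1.17 ± 0.27). The other T-box factor, Tbx21, which was named after its values were seen, fell (log2 -0.78 ± 0.27, adjusted p = 0.0476).

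Markers of other cells were read beside these results. The CD8 chains Cd8a and Cd8b1 were lower in Tet2/3-deficient Tregs, at a sum of 3.37 to 5.30 CPM, against 24.8 to 28.5 CPM in control Tregs, and 2 of 2 were called. NK and innate lymphoid markers (7 of 8 in the table) summed to 10.9 to 28.5 CPM in deficient Tregs and 9.11 to 12.5 CPM in control Tregs. Of 3 tested, Klrb1c rose, at 8.29 to 12.1 CPM in deficient Tregs and 3.71 to 5.60 CPM in controls, while the defining Ncr1 stayed at 0 to 0.12 CPM in deficient Tregs and 0 to 0.26 CPM in controls. Myeloid markers summed to 41.0 to 114 CPM in deficient Tregs and 33.0 to 39.9 CPM in controls, and 1 of 5 tested, Itgam, rose, at 29.0 to 54.7 CPM in deficient Tregs and 6.45 to 13.4 CPM in controls. Invariant NKT markers summed to 297 to 344 CPM in deficient Tregs and 322 to 352 CPM in controls, with Zbtb16 at or below 0.37 CPM in the deficient ones. B cell markers summed to 40.7 to 58.2 CPM in deficient Tregs and 42.6 to 103 CPM in controls, with none of 4 called. The markers of the sorted cells moved too, with Cd4, Cd5, Cd3e, Ikzf2 and Foxp3 called lower in deficient Tregs (log2 -0.58 ± 0.07, -0.65 ± 0.08, -0.22 ± 0.06, -0.57 ± 0.07 and -0.26 ± 0.07). The part of any of these markers' cells in the granule results was not tested. Without control libraries S1 and S3, a choice made after seeing the data, the 5 members that rose were called again, with log2 fold changes of 4.33 for Gzma, 1.64 for Prf1, 1.99 for Nkg7, 0.62 for Ctsw and 0.82 for Serpinb6b.

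The cultures follow the genes through activation and iTreg induction, with RA and vitamin C added. Activation without TGFβ took perforin and cathepsin W down and granzyme B up. Adding TGFβ raised 6 of the members, not all of them under every setting, and RA raised Nkg7 and Ctsw on top of that. Vitamin C added to TGFβ alone lowered both and raised Serpinb6b, calls that depended on the libraries fitted. A different vitamin C effect with and without RA was not shown for any member. Gzma had at most 3 counts in every cultured library and was called in none of the comparisons between cultures. The 6 groups of 2 libraries were fitted together, and comparisons that use the same group share its libraries.

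In Th0 cells against naive cells, 1 member rose, 3 fell and 4 did not pass of 8 tested, where 72% of all 11287 genes tested were called, 35.7% higher and 36.4% lower. Gzmb had 526 and 1431 counts in Th0 libraries, against 2 and 2 counts in naive libraries, a log2 fold change of 8.77 ± 1.11 (adjusted p = 0.000251). Gzmb passed the filter on low counts through the cultured libraries, where it was high, so the count of 1 is a description. Its Th0 libraries stood far apart from each other and further still from the naive ones, and without Th0 replicate 2 the log2 fold change was 7.90. Prf1 had 1 count in Th0 libraries in all, against 852 in naive libraries, where it was at 41.2 and 45.9 CPM. The ratio of summed CPM was 884.5-fold lower in Th0 cells, with a 95% counting interval of 158 to 34980 (adjusted p = 4.15e-12). Naive cells were thus the group with the highest Prf1 mean of the first table, beside Tet2/3-deficient Tregs, whose libraries overlapped with them. Ctsw was at 3.90 and 4.67 CPM in Th0 libraries and 46.9 and 50.5 CPM in naive libraries (log2 -3.53 ± 0.16, adjusted p = 3.56e-11). Gzma, the remaining member of the 3, was near its floor, with 3 and 2 counts in Th0 libraries and 11 and 11 in naive libraries, and it passed the filter on low counts through the naive libraries, so it is no support for a direction. Its call (adjusted p = 0.0118) was lost under DESeq2 and without Th0 replicate 2, and its adjusted p over 10 alternatives ran between 6.76e-05 and 0.155. Nkg7 was at 0.585 and 0.596 CPM in Th0 libraries and 0.604 and 1.35 CPM in naive libraries and was not called. Neither Serpinb9, Serpinb6b nor Srgn passed the test. Summed levels of markers of some other cells were also lower in Th0 cells. The CD8 chains summed to 14.9 to 15.9 CPM in Th0 cells and 31.2 to 33.7 CPM in naive cells, with 2 of 2 called lower. Myeloid markers summed to 0.496 to 0.976 CPM in Th0 cells and 8.91 to 9.67 CPM in naive cells, and Dntt was at 0.894 to 1.17 CPM in Th0 cells and 11.4 to 12.2 CPM in naive cells. Their part in the fall of Prf1 and Ctsw was not tested. The median log2 fold change of the members was -0.42, against -0.01 over all genes.

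In iTregs made with TGFβ against Th0 cells, 6 of 8 members rose and none fell, where 26.1% of all genes were called, 14.5% higher and 11.6% lower. Nkg7 was at 3.92 and 2.96 CPM in TGFβ iTregs, against 0.585 and 0.596 CPM in Th0 cells (5.62-fold, log2 2.49 ± 0.37, adjusted p = 0.000222). Ctsw was at 17 and 18.4 CPM in TGFβ iTregs, against 3.90 and 4.67 CPM in Th0 cells (4.03-fold, adjusted p = 1.15e-06). In both genes the groups were well apart and each pair of replicates was close. In this comparison 8 of the 9 members did not overlap, not all of them called. Prf1 had 44 counts in the TGFβ libraries together and 1 in the Th0 libraries, a ratio of 41.7 with a counting interval of 7.10 to 1683. Gzmb was at 330 and 304 CPM in TGFβ iTregs and 51.3 and 142 CPM in Th0 cells (log2 1.68 ± 0.48, adjusted p = 0.0412). That call was lost with no filter, with only these groups fitted, and without TGFβ replicate 1 or 2, and its adjusted p over 10 alternatives ran between 4.5e-08 and 0.211. Without Th0 replicate 2 the log2 fold change was 2.58. Serpinb6b rose (log2 0.91 ± 0.15, adjusted p = 0.000396), and so did Serpinb9 (log2 0.70 ± 0.16, adjusted p = 0.00512), though not without TGFβ replicate 2 (range of adjusted p over 10 alternatives 0.000462 to 0.0632). Gzmc, the neighbour of Gzmb, rose with them, at 48.3 ± 1.06 CPM in TGFβ iTregs and 12.2 ± 2.38 CPM in Th0 cells (SD, n = 2 each, adjusted p = 7.01e-07).

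RA added to TGFβ raised 2 of 8 members and lowered none, where 16.5% of all genes were called, 7.19% higher and 9.29% lower. Nkg7 was at 16.3 and 16.7 CPM with RA, against 3.92 and 2.96 CPM with TGFβ alone (4.75-fold, log2 2.25 ± 0.22, adjusted p = 6.61e-06). Ctsw was at 42.1 and 40.2 CPM with RA, against 17 and 18.4 CPM with TGFβ alone (2.31-fold, adjusted p = 2e-05). Both genes separated the groups cleanly, although 6 of the 9 members did not overlap in this comparison, not all of them called. Gzmb was lower in value, at 113 and 203 CPM with RA, against 330 and 304 CPM with TGFβ alone, but the RA libraries differed widely and the log2 fold change of -1.02 ± 0.47 was not called (adjusted p = 0.199). It was called by DESeq2 and with only these groups fitted, and over 10 alternatives its adjusted p ran between 0.00246 and 0.567. Gzmc fell (log2 -1.06 ± 0.15, adjusted p = 0.000193). Among the granule processing genes, Cst7 rose (log2 0.83 ± 0.14) and Stx11 fell (log2 -0.86 ± 0.22), while 16 of 18 did not pass. Of 13 transcription factors tested, 2 rose and 6 fell, with Prdm1 (log2 -1.47 ± 0.31) and Id2 (log2 -1.22 ± 0.12) the furthest down.

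Vitamin C added to TGFβ raised 1 and lowered 2 of 8 members, where 16.8% of all genes were called, 8.84% higher and 7.99% lower. Nkg7 was at 1.04 and 1.29 CPM with vitamin C, against 3.92 and 2.96 CPM with TGFβ alone, a 2.98-fold lower level (log2 -1.58 ± 0.32, adjusted p = 0.00429). Ctsw was at 11 and 13.9 CPM with vitamin C, against 17 and 18.4 CPM with TGFβ alone (log2 -0.53 ± 0.15, adjusted p = 0.0229). The groups were apart in both, as in 6 of the 9 members in this comparison, although the Nkg7 levels are low. Serpinb6b was at 41.8 and 36.9 CPM with vitamin C, against 28.8 and 29.3 CPM with TGFβ alone (log2 0.41 ± 0.13, adjusted p = 0.0445). Without TGFβ replicate 1 none of the 3 was called. Ctsw was also not called without TGFβ replicate 2 or vitamin C replicate 1, and Serpinb6b was not called when any 1 of the 4 libraries was left out, nor by DESeq2 or limma. Over 10 alternatives the adjusted p ran between 0.000774 and 0.0508 for Nkg7, between 0.0118 and 0.188 for Ctsw and between 0.0203 and 0.269 for Serpinb6b, with no change of direction. Gzmb was at 485 and 424 CPM with vitamin C, against 330 and 304 CPM with TGFβ alone, and Prf1 at 2.64 and 3.97 CPM with vitamin C, against 2.19 and 1.91 CPM with TGFβ alone. Both lay above TGFβ alone in each library, but neither was called (adjusted p = 0.504 and 0.104). Among its alternatives Gzmb was called only with these groups fitted alone (range of adjusted p 0.00732 to 0.756).

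Against 16.8% of all genes called under vitamin C, 8.84% higher and 7.99% lower, some genes of granule handling also moved. Of 18 tested, 5 rose and 1 fell: Stx11 (log2 1.31 ± 0.18), Ctsl (log2 0.84 ± 0.12) and the Rab protein Rab27a, which docks granules (log2 0.46 ± 0.09), rose, and Cst7 fell (log2 -1.06 ± 0.16). The death ligand Tnfsf10, known as TRAIL, was at 151 ± 0.884 CPM with vitamin C and 65.6 ± 8.26 CPM with TGFβ alone (SD, n = 2 each, adjusted p = 5.59e-06). Serpinb6a, a close relative of Serpinb6b, rose as well (log2 0.89 ± 0.12, adjusted p = 0.000238). Of 13 transcription factors tested, 4 rose, Ikzf2 (log2 1.54 ± 0.13), Bhlhe40, Bach2 and Hopx, and none fell.

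With RA present, vitamin C gave no called member: 0 of 8 were called by edgeR, DESeq2 or limma with group as the only term, where 7.54% of all genes were called, 4.31% higher and 3.22% lower. At an unadjusted p under 0.05 there were 2 of the 8, where 2378 of all 11287 genes were at that level, so this share is near the background. Nkg7 was at 12.4 and 10.7 CPM with RA plus vitamin C, against 16.3 and 16.7 CPM with RA (log2 -0.54 ± 0.18, adjusted p = 0.0978). Prf1 was at 4.71 and 4.98 CPM with RA plus vitamin C, against 3.21 and 3.00 CPM with RA (log2 0.62 ± 0.23, adjusted p = 0.135). The pairs did not overlap in either gene, as in 5 of the 9 members in this comparison, none of them called. The share of all genes without overlap was not counted, so the gap is a description. Whether vitamin C acted differently with and without RA was tested directly as an interaction. No member was called, where 0.0177% of all genes were, and Nkg7 (log2 difference 1.04 ± 0.37) and Serpinb6b (-0.54 ± 0.19) both had adjusted p = 0.764. A different vitamin C effect under RA was therefore not shown for any member.

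RA in the presence of vitamin C raised 2 members and lowered 1 of 8, where 15.1% of all genes were called, 5.81% higher and 9.3% lower. Nkg7 was at 12.4 and 10.7 CPM with RA plus vitamin C, against 1.04 and 1.29 CPM with vitamin C (9.75-fold, adjusted p = 7.46e-07). Ctsw was at 38.8 and 33.2 CPM with RA plus vitamin C, against 11 and 13.9 CPM with vitamin C (2.88-fold, adjusted p = 1.9e-06). Serpinb6b fell, at 21.5 and 23.4 CPM with RA plus vitamin C, against 41.8 and 36.9 CPM with vitamin C (log2 -0.81 ± 0.14, adjusted p = 7e-04). All 3 separated the groups without overlap, as did 6 of the 9 members in this comparison, not all of them called. The share of all genes without overlap was not counted. Gzmb was at 108 and 168 CPM with RA plus vitamin C, against 485 and 424 CPM with vitamin C, and missed the threshold (log2 -1.73 ± 0.47, adjusted p = 0.0535). The settings under which it passed include DESeq2, limma and a fit of only these groups, and over 10 alternatives its adjusted p ran between 1.59e-08 and 0.26.

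Both additions together, against TGFβ alone, raised 4 members and lowered 1 of 8, where 37.5% of all genes were called, 18.3% higher and 19.2% lower. Nkg7 (log2 1.71 ± 0.22, adjusted p = 3.13e-05), Ctsw (log2 1.00 ± 0.13, adjusted p = 3.63e-05) and Prf1 (log2 1.21 ± 0.25, adjusted p = 0.00166) rose. Prf1 was at 4.71 and 4.98 CPM with both, against 2.19 and 1.91 CPM with TGFβ alone, the highest level of any culture. Serpinb9 rose (log2 0.40 ± 0.15, adjusted p = 0.045) and Serpinb6b fell (log2 -0.40 ± 0.14, adjusted p = 0.0336) by small amounts. Neither was called by DESeq2 or limma. The call on Serpinb9 was also lost without TGFβ replicate 1 or RA plus vitamin C replicate 2 (range of adjusted p over 10 alternatives 0.0207 to 0.335), and that on Serpinb6b without any 1 of the 4 libraries (range 0.0189 to 0.141). Gzmb was lower in value (log2 -1.23 ± 0.47, adjusted p = 0.08), with calls by DESeq2, limma and with only these groups fitted (range of adjusted p 6.39e-05 to 0.323).

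**Figure D3:**
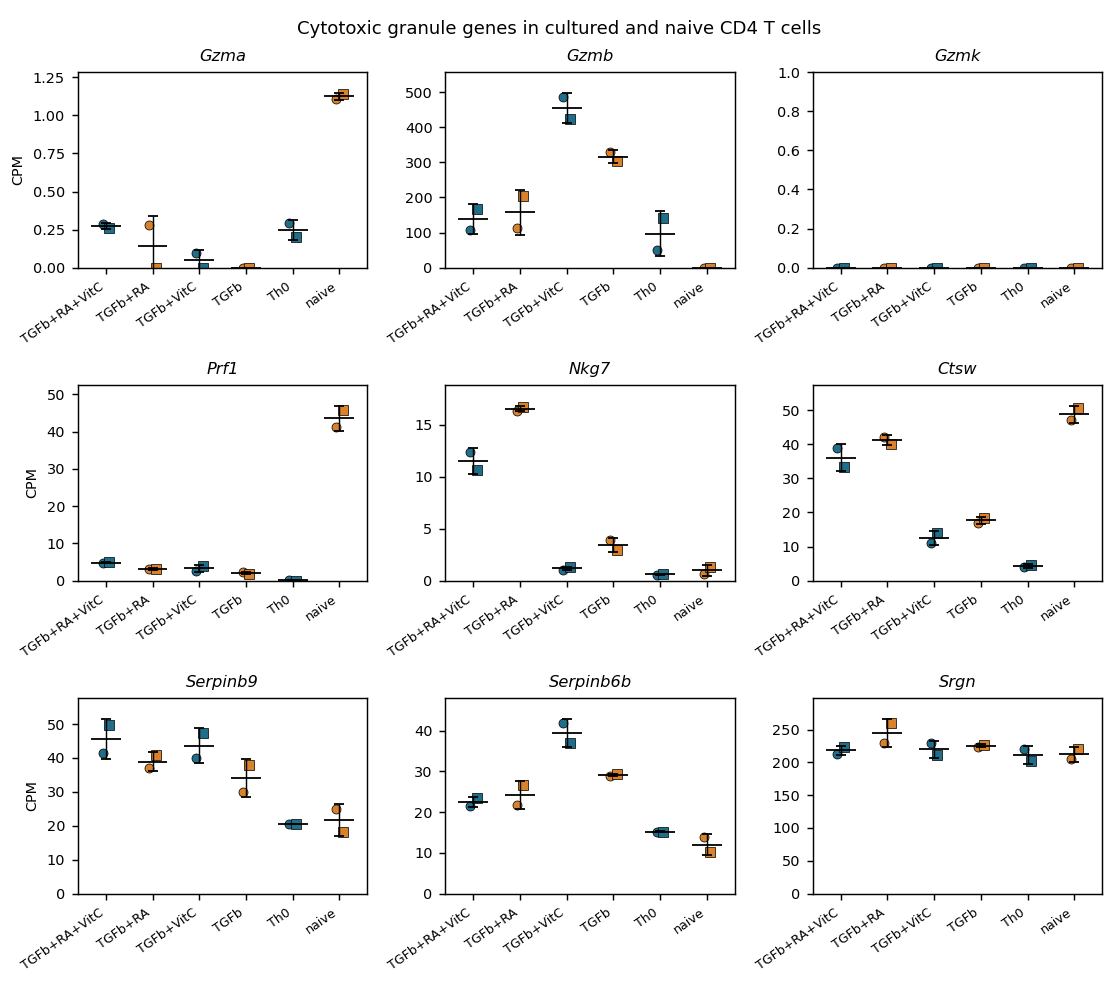
CPM (linear axis from 0, one panel a gene) in each cultured and naive library (points, n = 2 a group), with the group mean (horizontal line) and SD (error bar). Nkg7 and Ctsw are higher in both groups with RA (Nkg7 10.7 to 16.7 CPM) than with TGFβ alone (2.96 and 3.92 CPM), and Prf1 is highest in naive cells (41.2 and 45.9 CPM).

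Markers of other cells were read in the same libraries. NK and innate lymphoid markers summed to at most 1.63 CPM and myeloid markers to at most 5.48 CPM in every cultured library. The CD8 chains summed to 39.1 to 42.1 CPM with RA plus vitamin C, 11 to 11.6 CPM with RA, 23.3 to 28.2 CPM with vitamin C, 13.2 to 15.4 CPM with TGFβ alone and 14.9 to 15.9 CPM in Th0 cells. Their sum was thus higher in each group with vitamin C than in the matching group without it. Some markers moved with RA, as Nkg7 and Ctsw did. Cd8a was at 3.10 to 3.50 CPM with RA, 19.7 to 21.6 CPM with RA plus vitamin C and 0 to 0.48 CPM with TGFβ alone. Cd8b1 went the other way with RA, at 7.9 to 8.1 CPM, against 13.2 to 14.9 CPM with TGFβ alone. Of the 2 chains, 1 was called higher and 1 lower with RA than with TGFβ alone. The 4 immature thymocyte markers summed to 25.0 to 30.2 CPM with RA plus vitamin C, 16.2 CPM in both RA libraries, 4.44 to 5.45 CPM with vitamin C and 1.55 to 2.1 CPM with TGFβ alone. Nearly all of this was Dntt, which encodes terminal transferase, called higher with RA than with TGFβ alone (log2 3.17 ± 0.20, adjusted p = 9.58e-08), while 3 of the 4 markers were at 0 counts with RA. The 4 B cell markers summed to 11.6 to 14.6 CPM with RA plus vitamin C, 5.81 to 6.05 CPM with RA, 4.52 to 6.8 CPM with vitamin C and 3.05 to 3.47 CPM with TGFβ alone. Of 2 B cell markers tested, 1 rose with RA. The part of such cells or genes in the results was not tested.

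A further pair of comparisons set the control Tregs of the mice beside naive cells and beside TGFβ iTregs. The control Tregs differ from both also in age (3 weeks, against 5 to 6 weeks), in the floxed alleles and, for iTregs, in culture. Markers of other cells also moved: B cell markers summed to 42.6 to 103 CPM in control Tregs, against 2.02 to 2.80 CPM in naive cells and 3.05 to 3.47 CPM in TGFβ iTregs. NK and innate lymphoid markers summed to 9.11 to 12.5 CPM in control Tregs, against 0.302 to 0.518 CPM in naive cells and 0.191 to 0.274 CPM in TGFβ iTregs. Myeloid markers summed to 33.0 to 39.9 CPM in control Tregs, against 8.91 to 9.67 CPM in naive cells and 2.37 to 3.34 CPM in TGFβ iTregs. A further 10 genes had 0 counts in all 8 ex vivo libraries but at least 10 CPM in the other 12 of the first table. Among them was the granule fusion gene Vamp7, at 28.0 to 53.9 CPM in those 12. In the cultures of the second table its lowest value was 0 CPM. The opposite pattern in the first table was shown by Ccr3 and the Y-linked Ddx3y, Eif2s3y, Kdm5d and Uty. These had 0 counts in the 12 naive and cultured libraries and at least 10 CPM in the 8 ex vivo ones. Whether the mice also differed in sex was not tested. The cell state and these differences between the mice or libraries cannot be told apart in the values below.

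In control Tregs against naive cells, 5 members rose, 1 fell and 2 did not pass of 8 tested, where 54.9% of all 11738 genes tested were called, 28.6% higher and 26.3% lower, and the median log2 fold change was 0.75 over the members tested and 0.01 over all genes. Gzmb was at 43.5, 49.0, 35.4 and 38.5 CPM in control Tregs, against 0.201 and 0.207 CPM in naive cells (177-fold, log2 7.47 ± 0.31, adjusted p = 1.69e-08). Nkg7 was at 42.2, 33.3, 38.5 and 33.2 CPM in control Tregs, against 0.604 and 1.35 CPM in naive cells (34.0-fold, log2 5.09 ± 0.26, or 5.77 without naive replicate 2, adjusted p = 7.59e-08). Prf1 was 4.1-fold lower, at 11.2, 11.6, 13 and 11 CPM in control Tregs and 41.2 and 45.9 CPM in naive cells (log2 -2.04 ± 0.12, adjusted p = 2.63e-07). Control Tregs were thus far above naive cells in granzyme B and Nkg7 and below them in perforin, with no overlap in any of these. Gzmb and Nkg7 passed the filter on low counts through the control Tregs, where they were high. The count of 5 and the median are thus descriptions. Srgn rose (log2 1.24 ± 0.09, adjusted p = 1.03e-06) and so did Serpinb6b (log2 1.09 ± 0.23, adjusted p = 0.00314). Ctsw rose slightly (log2 0.33 ± 0.11, adjusted p = 0.0306), a call lost without naive replicate 1 or 2 (range of adjusted p over 11 alternatives 0.00642 to 0.177).

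In control Tregs against TGFβ iTregs, 5 members rose, 1 fell and 2 did not pass, where 61.4% of all 11831 genes tested were called, 32.3% higher and 29.1% lower. Granzyme B was the member that fell, 7.85-fold, at 35.4 to 49.0 CPM in control Tregs, against 330 and 304 CPM in TGFβ iTregs (log2 -2.97 ± 0.12, adjusted p = 3.62e-08). Gzmc fell beside it (log2 -3.44 ± 0.16). Prf1 was 5.52-fold higher in control Tregs (adjusted p = 3.98e-06), Nkg7 10.3-fold (adjusted p = 2.4e-07), and Ctsw rose by a log2 fold change of 1.88 ± 0.13 and Srgn by 1.25 ± 0.09. Gzma, counted among the 5 that rose, had 61 counts over the control Tregs and 0 over the TGFβ libraries. It was thus at least 6.96-fold higher, taking 3 counts over the group as the floor. It passed the filter on low counts through the control Tregs, where it was high, so the count of 5 is a description. Neither serpin passed the test.

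The second table compares restimulated cells that had become Foxp3-negative with the day 6 iTregs. Restimulated cells gained Nkg7 and cathepsin W, had more granzyme B and Serpinb9, and had less perforin and slightly less serglycin. Of 7 members tested, 4 rose, 2 fell and 1 did not pass, where 68.8% of all 11252 genes tested were called, 33.6% higher and 35.2% lower. The median log2 fold change was 0.49 over the members tested and -0.01 over all genes. The sort chose cells on Foxp3 itself, so the fall of Foxp3 between the groups is no result. The groups differ in the restimulation and in the sort together, so the 2 cannot be told apart.

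Nkg7 was at 155, 152 and 151 CPM in restimulated Foxp3-negative cells, against 3.46, 5.98 and 4.61 CPM in day 6 iTregs (30.1-fold, log2 4.91 ± 0.11, adjusted p = 8.74e-14). Ctsw was at 106, 101 and 107 CPM in restimulated cells, against 13.1, 14.3 and 15.8 CPM in day 6 iTregs (6.87-fold, adjusted p = 1.52e-13). The restimulated libraries were close to each other and far above the day 6 libraries in both genes. Gzmb was at 1152, 1295 and 970 CPM in restimulated cells, against 562, 587 and 565 CPM in day 6 iTregs (1.89-fold, adjusted p = 1.85e-06). Prf1 was at 0.797, 1.51 and 1.10 CPM in restimulated cells, against 2.18, 2.38 and 1.80 CPM in day 6 iTregs (1.92-fold lower, adjusted p = 0.00627). Granzyme B and perforin thus moved apart, each without overlap between the groups.

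Serpinb9 was at 27.0, 30.8 and 22.6 CPM in restimulated cells, against 19.0, 18.9 and 16.4 CPM in day 6 iTregs (log2 0.49 ± 0.11, adjusted p = 0.00107). Srgn was at 228, 226 and 241 CPM in restimulated cells, against 244, 257 and 262 CPM in day 6 iTregs (log2 -0.21 ± 0.05, adjusted p = 0.00301). Both shifts were small beside that of Nkg7, although the groups did not overlap. Serpinb6b was at 30.9, 30.6 and 28.2 CPM in restimulated cells, against 31.9, 29.4 and 35 CPM in day 6 iTregs, and was not called (adjusted p = 0.0545). Its only call among the alternatives came without day 6 replicate 2 (range of adjusted p over 11 alternatives 0.0345 to 0.27). Gzma was not tested, with 3, 7 and 10 counts in restimulated libraries and 1, 3 and 0 counts in day 6 libraries.

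**Figure D4:**
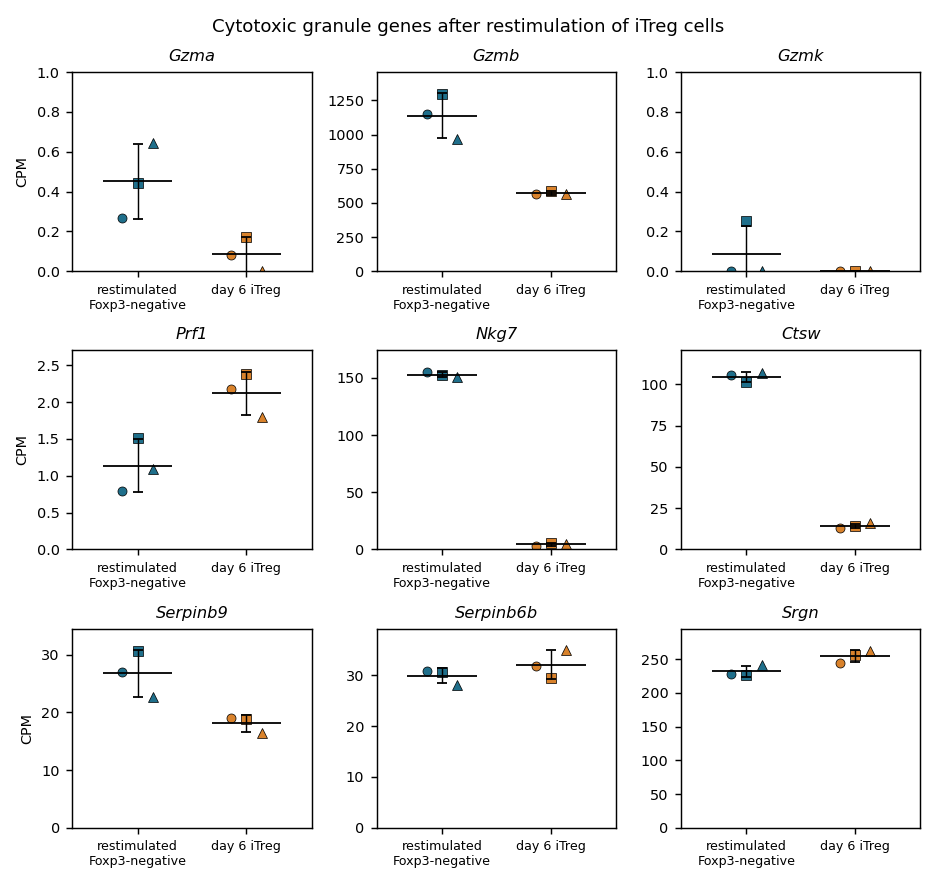
CPM (linear axis from 0, one panel a gene) in each restimulated Foxp3-negative and day 6 iTreg library (points, n = 3 each), with the group mean (horizontal line) and SD (error bar). Nkg7 stands at 151 to 155 CPM in restimulated cells and at 3.46 to 5.98 CPM in day 6 iTregs, while Prf1 is lower in restimulated cells.

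Many genes of the lists around the members were called, where 68.8% of all 11252 genes tested were, 33.6% higher and 35.2% lower. The list counts are descriptions beside that share. Of 17 genes of granule processing tested, 11 rose and 4 fell, with Lyst, the lysosomal trafficking regulator (log2 1.93 ± 0.17), and Cst7 (log2 1.78 ± 0.07) furthest up and Ctsl furthest down (log2 -1.33 ± 0.11). All 3 other clade B serpins tested rose, with Serpinb1a at 32.8 ± 2.06 CPM in restimulated cells and 3.95 ± 0.835 CPM in day 6 iTregs (SD, n = 3 each). Gzmc fell, unlike Gzmb, at 15.3 ± 1.94 CPM in restimulated cells and 41.2 ± 3.48 CPM in day 6 iTregs (adjusted p = 3.5e-09). Of 7 death ligands and receptors tested, 2 rose, among them Fasl (log2 1.27 ± 0.14), and 4 fell, among them Lta (log2 -2.73 ± 0.06). Both T-box factors rose, Tbx21 at 16.0 ± 0.367 CPM in restimulated cells and 0.213 ± 0.115 CPM in day 6 iTregs, and Eomes at 22.0 ± 1.54 CPM in restimulated cells and 1.29 ± 0.514 CPM in day 6 iTregs (SD, n = 3 each). Of 14 transcription factors tested, 6 rose and 7 fell. Markers of other cells were low: NK and innate lymphoid markers summed to 0.252 to 0.451 CPM in restimulated cells and 0.116 to 0.242 CPM in day 6 iTregs, and myeloid markers to 0.315 to 0.531 CPM in restimulated cells and 0.801 to 1.13 CPM in day 6 iTregs. The CD8 chains summed to 9.22 to 11.4 CPM in restimulated cells and 14.2 to 16.3 CPM in day 6 iTregs.

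Across the 8 groups of the first table the members did not keep a common order. By group mean, Nkg7 and Ctsw were highest in Tet2/3-deficient Tregs (135 and 98.4 CPM) and next in control Tregs (36.8 and 67.3 CPM), and both were lowest in Th0 cells. Gzmb was highest with TGFβ plus vitamin C (455 CPM) and lowest in naive cells, and the groups with RA, Th0 cells and Tet2/3-deficient Tregs overlapped with their neighbours in that order. Prf1 was highest in naive cells (43.6 CPM), with Tet2/3-deficient Tregs next (36.1 CPM) and overlapping, then control Tregs (11.7 CPM). Serpinb9 had the flattest order, with every neighbouring pair of groups overlapping, and its mean ran between 20.5 and 45.7 CPM. Srgn formed an upper tier of both ex vivo groups (551 CPM in control and 503 CPM in deficient Tregs) and a lower tier of all others (211 to 245 CPM).

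**Figure D5:**
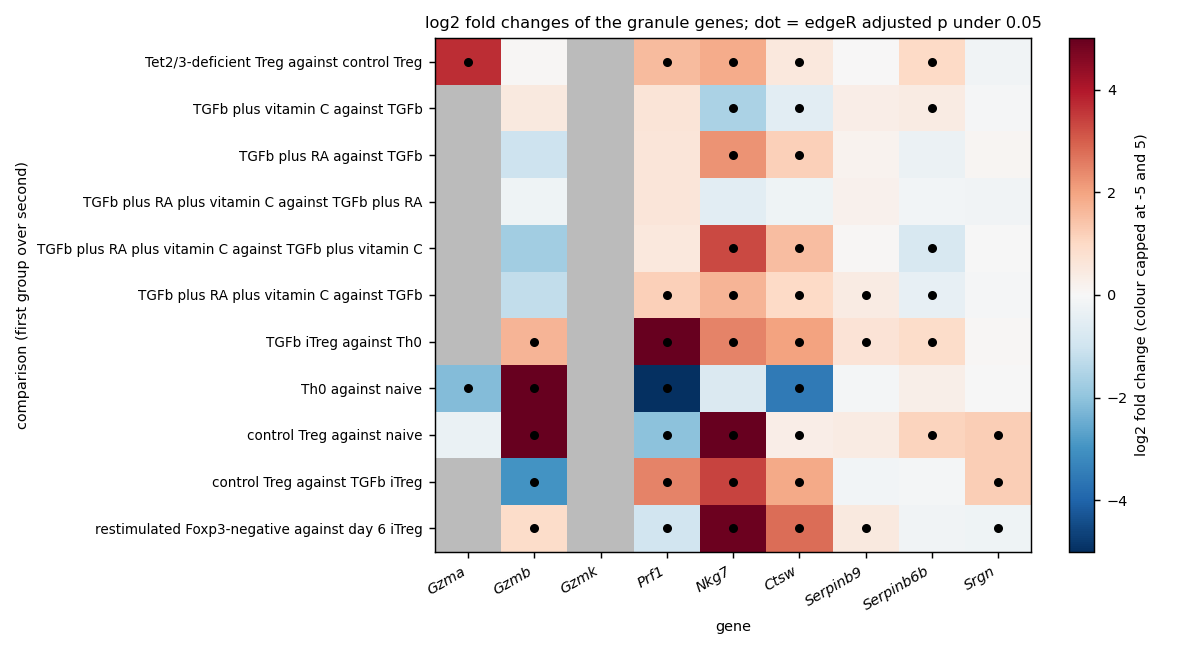
Log2 fold change (colour, capped at -5 and 5) of each member (columns) in each comparison (rows, first group over second), from edgeR, with dots on calls at adjusted p of 0.05. Grey marks Gzmk, and Gzma between cultures, against TGFβ iTregs and in the second table, where at least 1 group had too few counts for a fold change. Gzma in control Tregs against TGFβ iTregs (61 against 0 counts) was called higher, but its cell is grey and has no dot. The Prf1 values of Th0 cells depend on the prior count, and Nkg7 and Ctsw share their direction in every comparison in which both were called.

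Over the 20 libraries of the first table, Pearson's r of log2 CPM was highest among members for Prf1 with Ctsw (0.90), Nkg7 with Srgn (0.82) and Nkg7 with Ctsw (0.82). It was lowest for Prf1 with Gzmb (-0.59). The libraries share groups, ages and sorts, so these values describe the table and carry no test. By the same measure over 12092 genes, the genes most like a member were Rbm47 for Gzma (0.95), Kcnk6 and Cpe for Gzmb (0.98 and 0.97), Sox4 for Prf1 (0.95), Slc43a1 and Itgae for Nkg7 (0.97 and 0.95), and Rab32 for Ctsw (0.96). Lrrc57 came closest to Serpinb9 (0.93), Sesn2 to Serpinb6b (0.92), and Ntn4 and Klrg1 to Srgn (both 0.99).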

How the data were processed

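RNA-seq was measured in 26 libraries prepared with a stranded mRNA kit, per the labels' protocols. The authors deposited whole-number counts per gene and FPKM values per gene in 2 tables of 20 and 6 libraries. The tables were normalised separately and not pooled. Per the submitters' processing notes, the build was mm9 and the tools named were edgeR 3.26.6, Picard 2.5.0, TopHat2 2.1.1 and Trim Galore 0.4.2. The counting tool and annotation are not given in the sources used here. Of the gene rows, 92 and 99 had no symbol.

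Counts were tested with edgeR 4.0.16 in R 4.3.3 (TMM factors, filterByExpr, robust quasi-likelihood fit, two-sided, Benjamini-Hochberg adjustment over all genes tested, threshold 0.05). There were 5 fits: both ex vivo Treg groups, the 6 naive and cultured groups together, control Tregs with naive cells, control Tregs with TGFβ iTregs, and the second table. Standard errors are the log2 fold change divided by the square root of F. CPM used raw library totals. Alternatives were RLE size factors, no filter, DESeq2 1.42.0, limma 3.58.1 on log2(FPKM + 1), other sets of libraries in the fit, a replicate block and leaving out each library. The fits were tested on simulated data, except that of control Tregs with TGFβ iTregs. Counting intervals (95%) and the floor of 3 counts cover counting error only. Named genes were all members and, from each related list, up to 4 called genes with the largest fold change at a mean of at least 1 CPM; a gene outside this rule is said to be so where it is named. The members and lists were chosen with earlier results of these data known. Sequences are from RefSeq (GRCm38.p6), where 8 of the 9 members had a promoter entry.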

Additional observations from a re-analysis of the deposited data

How the results depend on the processing

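Of 88 member values in the comparisons, 46 were called. Of these, 37 were called under every setting in which they were tested, and 9 were not called in at least 1. None of those called changed direction. Gzma in control Tregs against TGFβ iTregs, among the 37, was tested with 5 of the libraries left out in turn. The other tested members of that comparison were tested with 6. Over 961 recomputed values, 884 kept direction and call, 29 lost the call, 20 gained it and 28, none of them called, changed direction. The causes of these changes were not tested. With 2 libraries a group, leaving 1 out assumes that the lone library varies like the other groups.

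In Tet2/3-deficient against control Tregs, leaving out control libraries S1 and S3, a choice made after seeing the data, gave log2 fold changes of -0.0125 for Gzmb and -0.18 for Serpinb9. In that comparison 62.7% of the genes limma called were higher, against 51.4% of those edgeR called, and in control Tregs against naive cells 66% with limma against 52.1% with edgeR. The pseudocount of limma's scale lowers changes of low genes, with log2 values of 2.73 for Gzma in Tet2/3-deficient Tregs, 5.75 for Gzmb in Th0 against naive cells and 4.72 for Gzmb in control Tregs against naive cells. The interaction for Prf1 was 0.0438 with limma, and the interaction called 25 genes without the filter, 17 with DESeq2, 23 with limma and 26 with the replicate block, against 2. RA plus vitamin C against RA called 851 genes, 487 with only these groups fitted and 1363 with the replicate block.

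Shared replicate numbers were not taken as pairs: in the second table same-numbered libraries correlated at 0.0778, 0.0967 and 0.197, and the cultures and naive cells have only 2 numbers, with positive correlations of 0.0337 to 0.496. With the replicate block 1 member was called for RA plus vitamin C against RA (Nkg7, adjusted p = 0.0464 in edgeR), and Gzmb was called for RA plus vitamin C against vitamin C (adjusted p = 0.0388). The block changed no other member's call, and it was not refitted with a library left out. Without the block, the log2 fold change of Nkg7 against RA ran from -0.66 to -0.41 with 1 library left out. In the ex vivo groups no paired analysis was possible, because the column numbers cannot be tied to single labels.

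Leaving out 1 library in turn, the genes called ran from 1 to 11 for the interaction, 1480 to 1945 for TGFβ against Th0, 795 to 1898 for RA, 771 to 1001 for vitamin C, 424 to 899 for RA plus vitamin C against RA, 819 to 1367 against vitamin C and 2811 to 3301 against TGFβ. The lowest counts for vitamin C, RA and both against TGFβ came without TGFβ replicate 1, those against RA, vitamin C and Th0 without RA replicate 2, vitamin C replicate 1 and Th0 replicate 1, and the 11 without RA replicate 2. Members called ran from 3 to 4 for RA plus vitamin C against TGFβ and 0 to 2 for vitamin C. Log2 fold changes crossed 0 for Gzmb (-0.29 to 0.24) and Serpinb9 (-0.0854 to 0.105) in Tet2/3-deficient Tregs, for Serpinb6b (-0.163 to 0.0556) and Serpinb9 (-0.305 to 0.0198) in control Tregs against TGFβ iTregs, and for Prf1 (-0.28 to 0.28) and Serpinb9 (-0.291 to 0.0409) in the interaction. They also did so for Gzmb (-0.57 to 0.27) and Serpinb6b (-0.25 to 0.0273) in RA plus vitamin C against RA, for Serpinb9 (-0.0667 to 0.172) and Srgn (-0.0876 to 0.0506) against vitamin C, and for Srgn under vitamin C (-0.133 to 0.00552) and TGFβ against Th0 (-0.0134 to 0.139). In Th0 against naive cells they did so for Serpinb9 (-0.32 to 0.14) and Srgn (-0.0894 to 0.0625).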
